A study of Homo sapiens with 24 samples.

Results

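Nelfinavir, an HIV protease inhibitor, was given on its own to HepG2 cells at 20 µM for 10 h, and the 4 libraries of these cells were set against the 4 libraries of cells that received vehicle (DMSO) for 10 h. These 8 libraries, chosen by their labels, are part of a series of 24. All genes of the count table were members: 18915 genes were counted, and 12685 of them passed a filter on low counts and were tested. The remaining libraries came from HepG2 cells given 50 nM bortezomib (a proteasome inhibitor), 50 nM ISRIB (which blunts the signal from phosphorylated eIF2α), or bortezomib with 20 µM nelfinavir or with 50 nM ISRIB, also for 10 h and in 4 libraries each. All 24 libraries shared 1 model, and the bortezomib libraries served to show where nelfinavir alone differed. HepG2 is an established hepatoma line, so each group stands for 1 line, 1 dose and 1 time. The labels call the libraries biological replicates and do not say how the cultures were separated.

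When the translation factor eIF2α is phosphorylated, most protein synthesis slows, while the messenger RNA of the transcription factor ATF4 is translated more. ATF4, paired with a C/EBP protein, switches on genes for amino acid uptake and synthesis, for loading amino acids on tRNAs and for feedback on the pathway itself. This program is the integrated stress response. The study used nelfinavir as a compound that lets phosphorylated eIF2α build up.

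Genes with an adjusted p-value under 0.05 were called, and every adjusted p-value here is a Benjamini-Hochberg value from the quasi-likelihood test of edgeR. Levels are CPM, read counts scaled to a common library total, after TMM scaling, and fold changes are on the log2 scale with their standard error (SE). Reads were primed at the poly(A) tail, so a level does not depend on transcript length. The nelfinavir libraries held 6489941 to 6936576 counts each and the DMSO libraries 5950624 to 6943164. The totals did not differ detectably (two-sided exact permutation test, n = 4 per group, p = 0.714, with 0.0286 the smallest this design allows). Mitochondrially encoded genes took 20.5% ± 1.66 of the counts with nelfinavir and 21.5% ± 1.32 with DMSO (SD, n = 4 each, exact permutation p = 0.371). The liver cell genes ALB and AFP ranked among abundant messages in both groups, with 2606 to 3382 and 2253 to 2787 CPM under nelfinavir. The stromal gene COL1A1, the endothelial gene KDR and the bile duct gene KRT7 had 0 counts in all 8 libraries. Other markers of non-hepatocyte cells did not. PDGFRB had 3 counts over the DMSO and 4 over the nelfinavir libraries, CD14 had 13 and 8, and CD68 had 121 and 98. Of 13 markers of other liver cells 4 passed the filter, and of these the contractile gene ACTA2 averaged 32.1 CPM with DMSO and 43.4 CPM with nelfinavir and the epithelial gene EPCAM 238 and 191 CPM. ACTA2 was called higher and EPCAM lower, and each call ended without any of 3 of the 8 libraries (adjusted p up to 0.125 and 0.11).

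Nelfinavir alone raised 1320 genes (10.4% of those tested) and lowered 1121 (8.84%), and the median log2 fold change of all tested genes was 0.007. These shares are the background for every list count below. By more than 2-fold, 252 genes were higher (1.99%) and 180 lower (1.42%). The 4 nelfinavir libraries lay wholly above or wholly below the 4 DMSO libraries for 3751 genes (29.6%). Across the 4 nelfinavir libraries, the median change of the genes over 2-fold higher ran from 1.32 to 1.44 on the log2 scale. That of the genes over 2-fold lower ran from -1.34 to -1.17. These genes were chosen from the same libraries, so the sign and size of the medians follow from that choice. Fewer genes, 94 higher and 27 lower, passed a test of whether the change itself exceeded 2-fold. A model of these 8 libraries alone called 1925 genes higher and 1948 lower. The calls of named genes were also checked by leaving out each of the 8 libraries in turn, and those that ended are given beside their values. Since each library is bulk RNA scaled to its own total, less of a message per cell and fewer cells that make it cannot be told apart.

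Among the regulators of the integrated stress response itself, 10 of 22 rose and 2 fell, with a median of 0.26 against 0.007 for all genes. ATF4 messenger RNA stood at 234, 246, 219 and 233 CPM in the DMSO libraries and at 964, 753, 889 and 859 CPM with nelfinavir, a rise of 1.89 on the log2 scale (SE 0.118, adjusted p = 2.16e-14). The groups were far apart, and the nelfinavir libraries spread more widely among themselves than the DMSO libraries did. DDIT3, which encodes the stress factor CHOP, had 13.9, 14.8, 12.3 and 12.4 CPM with DMSO and 84.1, 66.0, 79.3 and 84.0 CPM with nelfinavir (2.55, SE 0.129, adjusted p = 8.72e-17). NUPR1, a small chromatin-associated stress protein, went from 7.35 to 9.24 CPM with DMSO to 70.6 to 82.7 CPM with nelfinavir (3.29, SE 0.169, adjusted p = 1.26e-16). These regulators are among the 13 of 22 whose groups did not overlap, which was also seen for 29.6% of all tested genes. ATF4 has close pseudogene copies (ATF4P3 matched its last 500 bases at 98.2%), so part of its reads may have been assigned elsewhere.

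The partners and brakes of ATF4 rose too. CEBPB, a C/EBP partner of ATF4, measured 19.6, 20.6, 23.8 and 20.8 CPM with DMSO and 128, 123, 95.3 and 139 CPM with nelfinavir (2.52, SE 0.186, adjusted p = 1.3e-12). CEBPG, another partner, rose less, by 1.25 (SE 0.199, adjusted p = 1.59e-05). TRIB3, a pseudokinase that binds ATF4 and restrains it, rose by 2.32 (SE 0.108, adjusted p = 9.96e-18), and ATF3, a repressor of the same family, by 2.81 (SE 0.189, adjusted p = 1.36e-13). JDP2, a repressor of AP-1 and ATF sites, was almost absent from untreated cells, with raw counts of 1, 2, 1 and 0 with DMSO against 49, 38, 33 and 30 with nelfinavir. Its summed counts gave a ratio of 37.6 with a 95% interval of 14.4 to 140.0 that covers counting error only. PPP1R15A (GADD34), the inducible subunit that directs a phosphatase to eIF2α, rose by 1.68 (SE 0.144, adjusted p = 5.65e-11).

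The core machinery upstream of ATF4 moved little. PPP1R15B, which encodes the constitutive phosphatase subunit CReP, had 24.2 to 31.3 CPM with DMSO and 22.1 to 31.9 CPM with nelfinavir (0.08, SE 0.163, adjusted p = 0.811). The eIF2α gene EIF2S1 fell by 0.31 on the log2 scale (SE 0.113, adjusted p = 0.049), and the eIF2α kinase gene EIF2AK2 (PKR) fell by 0.37 (SE 0.104, adjusted p = 0.00917). EIF2AK1, the heme-regulated kinase, rose by 0.22 (SE 0.0777, adjusted p = 0.0408). EIF2AK3 (PERK) reached 0.41 and missed the threshold (SE 0.15, adjusted p = 0.0524). The calls of EIF2S1 and EIF2AK1 each ended when any of 7 of the 8 libraries was left out (adjusted p up to 0.181 and 0.112), and that of EIF2AK2 ended without nelfinavir replicate 3 (adjusted p = 0.0569). ATF5, a relative of ATF4, gave -0.13 (SE 0.197, adjusted p = 0.738).

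Genes that make amino acids and feed the folate cycle rose in 14 of 18 cases and fell in 1, with a median of 1.18. CTH, the last enzyme in making cysteine from methionine, had 1.05, 2.08, 3.92 and 1.47 CPM with DMSO and 28.8, 29.6, 28.6 and 26.7 CPM with nelfinavir (3.76, SE 0.252, adjusted p = 1.35e-13). The nelfinavir libraries were nearly equal and none overlapped DMSO. The 3 serine synthesis enzymes rose together: PHGDH by 1.44 (SE 0.105), PSAT1 by 1.53 (SE 0.141) and PSPH by 1.13 (SE 0.094). In the mitochondrial folate branch MTHFD2 rose by 2.47 (SE 0.0997), SHMT2 by 1.32 (SE 0.0887) and MTHFD1L by 0.85 (SE 0.109). ALDH1L2, which closes that branch by oxidising formyl-folate, had 11 counts over the DMSO libraries and 154 over the nelfinavir libraries, a ratio of 14 (95% counting interval 7.63 to 28.7). The member that fell was MTHFD1, the cytosolic folate enzyme, by 0.64 on the log2 scale (SE 0.102, adjusted p = 1.67e-05). The other cytosolic folate enzyme of the list, SHMT1, was not called (-0.46, SE 0.205, adjusted p = 0.128).

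Of 14 amino acid transporters, 11 rose and none fell (median 1.12). SLC6A9, a glycine transporter, went from 2.44, 0.781, 1.82 and 2.82 CPM to 37.6, 26.1, 30.5 and 31.2 CPM (3.97, SE 0.249, adjusted p = 2.41e-14), the steepest rise of the list. SLC1A5, which carries glutamine, rose by 1.51 (SE 0.108), SLC7A1, which carries arginine and lysine, by 1.46 (SE 0.0888), and SLC38A2, another glutamine carrier, by 1.09 (SE 0.0772). SLC3A2 rose by 1.16 (SE 0.0833). It is the heavy chain shared by the exchangers SLC7A11 and SLC7A5, and SLC7A5 itself rose by 0.40 (SE 0.117, adjusted p = 0.0147), a call that ended without DMSO replicate 3 or nelfinavir replicate 1 (adjusted p up to 0.0718).

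The tRNA synthetases, which load amino acids on tRNAs, split by compartment. Of 20 cytosolic synthetases 12 rose and 1 fell (median 0.65), while of 17 mitochondrial synthetases none rose and 3 fell (median -0.19). CARS, the cysteine enzyme, had 28.8, 28, 27.1 and 32.1 CPM with DMSO and 126, 113, 113 and 106 CPM with nelfinavir (1.98, SE 0.107, adjusted p = 5.3e-16). SARS rose by 1.63 (SE 0.107), MARS by 1.53 (SE 0.0833) and WARS by 1.45 (SE 0.112). RARS, the arginine enzyme, went the other way, from 139 to 165 CPM down to 80.9 to 119 CPM (-0.52, SE 0.117, adjusted p = 0.00121). The mitochondrial enzymes TARS2 and IARS2 fell by 0.71 (SE 0.166) and by 0.67 on the log2 scale (SE 0.225), and AARS2 by 0.63 (SE 0.201). The call of IARS2 ended without any of 5 of the 8 libraries (adjusted p up to 0.136), and that of AARS2 without DMSO replicate 1 or 4 or nelfinavir replicate 1 (up to 0.109). Without DMSO replicate 4 or nelfinavir replicate 1, TARS2 was the 1 mitochondrial enzyme called lower.

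Promoter sequences are shown for genes of this program because the same short motif, the core of the C/EBP-ATF response element, stood in the windows of several of them. The windows run from 250 bases before to 50 bases after each start site in RefSeq (assembly GRCh38.p14), and 9816 of the 12685 tested genes had at least 1. The letters searched were TGATGNAA on both strands, where N is any base. They occurred in 2.74% of all tested genes with a window, in 12.7% of those over 2-fold higher (24 of 189), in 1.5% of those over 2-fold lower and in 2.4% of those not called. Each stretch below is 60 bases long, is written 5′ to 3′ on the strand of its gene and has the match in capitals. A match is a description of the letters and does not show binding.
JDP2, chr14:75427980-75428039: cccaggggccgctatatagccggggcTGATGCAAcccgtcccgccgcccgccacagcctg
CEBPG, chr19:33374045-33374104: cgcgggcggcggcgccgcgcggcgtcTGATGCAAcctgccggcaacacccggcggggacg
ASNS, chr7:97872443-97872502: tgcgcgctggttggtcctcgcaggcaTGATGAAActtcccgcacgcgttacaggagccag
SLC7A1, chr13:29595648-29595707: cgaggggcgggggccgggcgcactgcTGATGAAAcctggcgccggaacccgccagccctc
CARS, chr11:3057392-3057451: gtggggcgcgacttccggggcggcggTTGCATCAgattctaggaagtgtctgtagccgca
MARS, chr12:57488038-57488097: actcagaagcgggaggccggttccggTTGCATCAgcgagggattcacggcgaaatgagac
GARS, chr7:30594819-30594878: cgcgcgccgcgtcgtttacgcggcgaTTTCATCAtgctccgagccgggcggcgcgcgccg

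JDP2, CEBPG, CARS and MARS carried the same 8 letters, in the first 2 on the gene's strand and in the last 2 on the other strand. Among the cytosolic synthetases with a window, 7 of 16 held the motif (AARS, CARS, GARS, IARS, MARS, NARS and TARS), and all 7 rose, by 0.62 to 1.98. Of the other 9, EPRS, SARS and WARS rose, RARS fell and 5 were not called. Among 14 mitochondrial synthetases with a window, YARS2 alone held it, and YARS2 was not called (-0.28, SE 0.17, adjusted p = 0.282). Among the transporters 5 of 12 held it and all 5 rose, as did 4 of the 7 without it. Among amino acid and one-carbon enzymes the 3 with it rose, as did 6 of the 10 without it. PPP1R15B held it without being called.

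Genes that brake growth or are secreted under stress rose in 9 of the 11 cases that passed the filter, with a median of 2.03, and 4 further members were under the filter. ADM2, a peptide hormone of the adrenomedullin family, had 4.3, 5.47, 4.76 and 4.29 CPM with DMSO and 44.3, 36.8, 39.3 and 36.2 CPM with nelfinavir (3.06, SE 0.146, adjusted p = 1.85e-17). INHBE, a liver-made activin subunit, rose by 2.43 (SE 0.0965), STC2, a secreted glycoprotein, by 2.03 (SE 0.103), GDF15, a circulating stress hormone, by 1.94 (SE 0.132), and VEGFA, the vascular growth factor, by 1.34 (SE 0.191). SESN2, which holds back the growth kinase mTORC1, rose by 2.44 (SE 0.14, adjusted p = 2.78e-15). VLDLR, a lipoprotein receptor, had raw counts of 1, 0, 3 and 2 with DMSO and 55, 46, 45 and 37 with nelfinavir, a ratio of 30.6 (95% counting interval 13.8 to 84.4).

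Fasting genes of the liver rose in 5 of 7 tested cases and fell in none (median 1.30), with 5 further members under the filter. IGFBP1, a secreted binder of insulin-like growth factors that insulin represses, had 2.32, 1.17, 3.92 and 2.21 CPM with DMSO and 107, 41.2, 47.1 and 92.4 CPM with nelfinavir (4.91, SE 0.284, adjusted p = 3e-15). Its nelfinavir libraries fell into a higher and a lower pair, and all were well above DMSO. PCK2, the mitochondrial form of the enzyme that starts glucose synthesis from oxaloacetate, rose by 1.69 (SE 0.12, adjusted p = 4.68e-13). The cytosolic form PCK1 lay near the detection limit at 0.245 to 1.17 CPM and reached 1.82 to 3.48 CPM (1.83, SE 0.563, adjusted p = 0.0187). The call of PCK1 ended without any of 4 of the 8 libraries (adjusted p up to 0.081). TAT, which breaks down tyrosine, rose by 1.30 (SE 0.368, adjusted p = 0.01, but 0.0596 without nelfinavir replicate 1), and CPT1A, which admits fatty acids to the mitochondrion, by 0.42 (SE 0.104, adjusted p = 0.00354).

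The folding machinery of the endoplasmic reticulum (ER) moved little at the median. Of 23 ER chaperones and folding enzymes 6 rose (26.1%, against 10.4% of all tested genes) and 2 fell (8.7%, against 8.84%), with a median of 0.01. HSPA5 (BiP), the main ER chaperone, had 1400, 1455, 1456 and 1526 CPM with DMSO and 1734, 1399, 1684 and 1507 CPM with nelfinavir (0.12, SE 0.0973, adjusted p = 0.477). The 2 groups overlapped. DNAJB9, a BiP cochaperone, rose by 0.94 (SE 0.325, adjusted p = 0.0385), ERO1LB, a disulfide oxidase, by 1.21 (SE 0.263, adjusted p = 0.000887), and HYOU1 by 0.46 (SE 0.109, adjusted p = 0.00234). SDF2L1, which works with BiP, fell by 0.44 on the log2 scale (SE 0.134, adjusted p = 0.0185). The call of DNAJB9 ended without any of 6 of the 8 libraries (adjusted p up to 0.127) and that of SDF2L1 without DMSO replicate 1 or 2 or nelfinavir replicate 4 (up to 0.0929). With 1 library left out, 0 to 3 of these chaperones were called lower, and 8 were in a model of the 2 groups alone. Among 22 genes of ER-associated degradation and the ER stress sensors, 10 rose and 1 fell (median 0.24), a decrease that was not called without DMSO replicate 1 or 4 or nelfinavir replicate 3 or 4. The sensor gene ERN1 (IRE1) rose by 1.14 (SE 0.199) and HERPUD1, part of the export channel complex, by 0.81 (SE 0.209), although 1 nelfinavir library of HERPUD1, at 34.5 CPM, lay within the DMSO range of 24.8 to 34.9 CPM. XBP1, counted over its spliced and unspliced forms, did not pass (0.05, SE 0.1, adjusted p = 0.799).

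Cytosolic heat shock genes, which encode chaperones for misfolded cytosolic proteins, fell in 15 of 23 cases and rose in none (median -0.36). HSPA1A, an inducible HSP70 gene, had 69.0, 72.5, 76.0 and 79.4 CPM with DMSO and 31.2, 37.3, 31.1 and 27.9 CPM with nelfinavir (-1.22, SE 0.128, adjusted p = 5.55e-09). The groups did not overlap. Its neighbor HSPA1B, whose 3′ end matched that of HSPA1A over 130 bases at 97.7%, fell by 0.98 (SE 0.122), the HSP110 gene HSPH1 by 0.80 (SE 0.116) and the constitutive HSP70 gene HSPA8 by 0.76 on the log2 scale (SE 0.189, adjusted p = 0.00348). The strictly inducible genes HSPA6 and HSPB8 had 0 counts in all 8 libraries, so no fold is given. They count among the 23 but could not be called lower against DMSO. HSPA6 had 28 to 76 counts per library under bortezomib. Of 31 proteasome subunit genes 2 rose, 3 fell and 26 were not called (median -0.09). The model of the 2 groups alone called 7 of them lower, and without DMSO replicate 2 or nelfinavir replicate 1 the number called higher was 1.

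The metallothioneins, small cysteine-rich proteins that bind zinc and copper, rose in all 5 tested cases, as did the zinc exporter SLC30A1, while 2 further list members were under the filter (median 2.95). MT1E had 6.62, 2.73, 6.58 and 5.27 CPM with DMSO and 64.2, 56.1, 54.6 and 59.7 CPM with nelfinavir (3.46, SE 0.197, adjusted p = 1.94e-15). MT1G, MT1F and MT1X rose by 3.53 (SE 0.256), 3.37 (SE 0.311) and 2.10 (SE 0.299), and MT2A, the most abundant, from 92.9 to 109 CPM up to 523 to 664 CPM (2.54, SE 0.125). SLC30A1 rose by 0.96 (SE 0.15, adjusted p = 1.11e-05). The 5 genes lie in a cluster on chromosome 16 (GRCh37), from MT2A at chr16:56642496-56643409 to MT1X at chr16:56716382-56718108. The 3′ ends of MT2A and MT1X matched the pseudogenes MT2P1 (183 bases at 97.3%) and MT1XP1 (92 bases at 97.8%), so their reads may have been split.

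Genes under NRF2, the factor that answers oxidative stress, rose in 14 of 24 cases and fell in none (median 0.38). OSGIN1, an oxidative stress gene, had 11, 10.7, 11.2 and 11.9 CPM with DMSO and 37.1, 29.2, 34.4 and 35.7 CPM with nelfinavir (1.60, SE 0.12, adjusted p = 1.59e-12). OSGIN1 shares its last 178 bases with the neighboring gene MLYCD. AKR1C1, an aldo-keto reductase whose 3′ end is 98.2% identical to that of AKR1C2, rose by 1.32 (SE 0.105), and the subunit genes GCLC and GCLM of the enzyme that limits glutathione synthesis rose by 0.94 (SE 0.122) and 0.87 (SE 0.136). NQO1 rose by 0.49 (SE 0.0754). HMOX1, which degrades heme, gave -0.35 and was not called (SE 0.15, adjusted p = 0.107).

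Autophagy genes rose in 9 of 19 cases and fell in none (median 0.59). ULK1, the kinase that starts autophagosome formation, had 12.4, 10.0, 10.8 and 11.2 CPM with DMSO and 53.6, 43.2, 50.6 and 55.7 CPM with nelfinavir (2.19, SE 0.128, adjusted p = 3.32e-15). The membrane tags GABARAPL1 and MAP1LC3B rose by 1.76 (SE 0.16) and 1.47 (SE 0.143), WIPI1, which binds the growing membrane, by 1.35 (SE 0.153), and the cargo receptors SQSTM1, CALCOCO2 and NBR1 by 1.01 (SE 0.0926), 1.01 (SE 0.104) and 0.78 (SE 0.0946). Core autophagy genes such as ATG5 (-0.20), ATG7 (0.32) and BECN1 (0.22) were not called. The 3′ end of MAP1LC3B matched MAP1LC3B2 over 91 bases. Lysosome genes rose in 11 of 28 cases (7 with no filter on low counts) and none fell (median 0.20), led by TFE3 (0.88, SE 0.165), a factor for lysosomal genes, and by RRAGC (0.77, SE 0.0939) and FLCN (0.71, SE 0.137), which pass amino acid signals at the lysosome.

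DNA replication genes and targets of the E2F transcription factors, kept in 1 list, fell almost throughout. Of 50 tested, 48 fell, 30 of them by more than 2-fold, none rose, and MCM9 (-0.90, adjusted p = 0.0674) and FAM111A (-0.12, adjusted p = 0.772) were not called (median -1.12). DTL, which directs the licensing factor CDT1 to degradation, had 36.4, 33.8, 36.2 and 36.4 CPM with DMSO and 6.57, 8.78, 10.2 and 7.92 CPM with nelfinavir (-2.09, SE 0.149, adjusted p = 5.49e-13). CCNE2, the cyclin of S phase entry, went from 4.07, 5.47, 6.3 and 5.64 CPM to 0.717, 1.68, 1.17 and 2.21 CPM (-1.89, SE 0.313, adjusted p = 2.75e-05). In both the groups were separate. PCNA, the sliding clamp, fell by 1.45 (SE 0.145), the origin loader CDC6 by 1.46 (SE 0.0992), the replication initiation factor MCM10 by 1.84 (SE 0.132) and the mismatch and uracil repair genes MSH6 and UNG by 1.41 (SE 0.0998) and 1.38 on the log2 scale (SE 0.12). The transcription factors over these genes fell as well, E2F1 by 1.03 (SE 0.147) and E2F2 by 1.50 on the log2 scale (SE 0.253). The smallest decreases among the called members included CDT1 (-0.35, SE 0.121, adjusted p = 0.0356) and TK1 (-0.34, SE 0.109, adjusted p = 0.0239), and these calls ended without any of 6 and of 5 of the 8 libraries (adjusted p up to 0.119 and 0.121).

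The promoters of replication genes are shown because E2F factors act through a short site near their starts. The letters TTTNNCGC, on both strands, were found in 28 of the 44 replication genes with a window (63.6%). Among all tested genes with a window the share was 13%, among those over 2-fold lower 25.6% and among those over 2-fold higher 8.99%. The list was drawn up to hold E2F targets as well as replication genes, so its high share follows in part from that choice. Of all 180 genes over 2-fold lower, 30 belong to this list, so the 25.6% is not separate from it. The stretches below are in RefSeq coordinates on GRCh38.p14, with the strand of the gene and the match in capitals.
CDC6, chr17:40287860-40287919: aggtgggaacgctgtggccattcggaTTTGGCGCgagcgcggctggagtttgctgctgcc
DTL, chr1:212035714-212035773: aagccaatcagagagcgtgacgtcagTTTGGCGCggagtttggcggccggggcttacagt
MCM6, chr2:135876562-135876621: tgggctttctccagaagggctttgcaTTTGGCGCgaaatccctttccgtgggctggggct

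CDC6, DTL and MCM6 held the same 8 letters, and MCM6 fell by 1.55 (SE 0.173, adjusted p = 2.32e-08). Of the 28 replication genes with the letters 27 fell, with a median of -1.13, and of the 16 without them 15 fell, with a median of -0.93. The letters were not confined to genes that fell. They stood in 4 of 16 cytosolic tRNA synthetases, all 4 called higher, and in 4 of 12 amino acid transporters, 3 called higher.

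Mitosis genes, which act later in the cell cycle, fell less: 23 of 30 were lower and none higher, with a median of -0.44. The E2F letters stood in 2 of 25 of their windows (8.0%). ANLN, which builds the cleavage furrow, fell by 1.13 (SE 0.134, adjusted p = 6.72e-08), CDK1 by 0.74 (SE 0.116), the proliferation marker MKI67 by 0.57 (SE 0.101) and CCNB1 by 0.37 on the log2 scale (SE 0.105). CCNB2 was not called (0.07, SE 0.102, adjusted p = 0.706). Of the cyclins, kinase inhibitors and MYC network genes 4 rose and 5 fell of 17, with 3 falling when DMSO replicate 1 or 4 or nelfinavir replicate 1 or 2 was left out. CCND1, the cyclin that answers growth signals, had 144 to 152 CPM with DMSO and 78.3 to 108 CPM with nelfinavir (-0.71, SE 0.141, adjusted p = 0.000325), and its partner CDK6 fell by 0.69 (SE 0.101). CDKN1A (p21) gave 0.07 (SE 0.117, adjusted p = 0.762) and MYC 0.03 (SE 0.347, adjusted p = 0.971). SKP2, which marks cyclin kinase inhibitors for degradation, fell by 1.37 on the log2 scale (SE 0.128, adjusted p = 4.01e-10).

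Of 23 p53 target genes 3 rose and 1 fell (median -0.01), the decrease being called in the fits without nelfinavir replicate 2 or 3 but in no other fit that left out 1 library. The 3 were BBC3 (PUMA), TP53INP1 and TNFRSF10B (the death receptor DR5), at 1.61 (SE 0.17), 1.23 (SE 0.184) and 0.68 (SE 0.0986). The p53 target MDM2 gave -0.04 (SE 0.0819, adjusted p = 0.795). Among 22 genes of the BCL2 family and the death receptors 4 rose (18.2%) and 2 fell (9.09%), the decreases being near the share of all tested genes. BMF, a BH3-only death promoter, had 1.16, 3.12, 2.66 and 1.84 CPM with DMSO and 13.7, 9.94, 11.3 and 12.6 CPM with nelfinavir (2.44, SE 0.375, adjusted p = 8.4e-06). PMAIP1 (NOXA) rose by 1.17 (SE 0.339, adjusted p = 0.0127) and BCL2L11 (BIM) was not called (-0.29, SE 0.169, adjusted p = 0.257). The initiator caspase gene CASP8 fell by 0.67 on the log2 scale (SE 0.187, adjusted p = 0.0091).

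Genes for cholesterol synthesis and uptake fell in 8 of 23 cases (14 in a model of the 2 groups alone) and rose in none (median -0.36). HMGCS1, which makes the precursor HMG-CoA, had 186, 180.4, 193 and 192 CPM with DMSO and 89.8, 108, 109 and 108 CPM with nelfinavir (-0.86, SE 0.0871, adjusted p = 2.73e-09). The groups did not overlap. IDI1, MSMO1 and SQLE, further enzymes of the route, fell by 1.14 (SE 0.239), 0.86 (SE 0.0957) and 0.65 on the log2 scale (SE 0.0869). SREBF2, which encodes the factor over these genes, was not called (0.24, SE 0.134, adjusted p = 0.248). Of 14 fatty acid genes 2 rose, MLXIPL (0.65, SE 0.144) and GPAM (0.49, SE 0.0868), and 2 fell (0 to 2 with 1 library left out, 5 in a model of the 2 groups alone). Each count was 14.3% of the list, against 10.4% higher and 8.84% lower over all tested genes. FASN and SCD were not called (0.14 and -0.08).

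Feedback genes of the Wnt pathway, which is active in HepG2 cells, fell in 8 of 13 cases and rose in none (median -0.71). DKK1, a secreted Wnt antagonist, had 51.9, 64.6, 57.9 and 64.5 CPM with DMSO and 8.48, 8.78, 7.66 and 9.61 CPM with nelfinavir (-2.79, SE 0.193, adjusted p = 2.49e-13). TNFRSF19 fell by 1.23 (SE 0.182), AXIN2, a scaffold that limits β-catenin, by 0.92 (SE 0.154), and RNF43 and ZNRF3, which remove Wnt receptors, by 0.91 (SE 0.119) and 0.83 on the log2 scale (SE 0.196). LGR5 and NKD1 were not called (-0.20 and -0.09). Targets of YAP and TEAD, which sense cell shape and density, fell in 4 of 10 cases and rose in 1 (median -0.62). CTGF had 35.0, 34.0, 43.8 and 38.4 CPM with DMSO and 11.8, 12.9, 11.2 and 10.0 CPM with nelfinavir (-1.72, SE 0.218, adjusted p = 2.79e-07), and ANKRD1 fell by 2.24 (SE 0.195). CYR61, the other classical target, gave -0.66 and was not called (SE 0.365, adjusted p = 0.237).

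Of the NF-kB targets 3 of 12 fell and none rose (median -0.33): BIRC3 by 1.20 (SE 0.222), TNFAIP3 by 0.81 (SE 0.159) and NFKBIA by 0.58 on the log2 scale (SE 0.0922), and the latter pair feed back on the pathway. AP-1 and immediate early genes rose in 6 of 13 cases (median 0.45), with JUN at 0.91 (SE 0.0989) and MAFF at 0.81 (SE 0.15), while EGR1 was not called (0.32, SE 0.244, adjusted p = 0.426). Among 14 MAP kinase feedback genes 3 rose, the largest being the phosphatase DUSP8 (1.06, SE 0.174, adjusted p = 2.55e-05).

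Of 25 plasma protein genes 7 rose and none fell (median 0.16). SERPINC1 (antithrombin) had 33.2, 36.5, 40.6 and 35.2 CPM with DMSO and 80.9, 89.8, 84.4 and 95.9 CPM with nelfinavir (1.27, SE 0.119, adjusted p = 4e-10), and the clotting factor gene F7 rose by 1.21 (SE 0.189). ALB (-0.17, SE 0.124, adjusted p = 0.387) and AFP (-0.25, SE 0.134, adjusted p = 0.223) were not called. Of 16 hepatocyte transcription factors and nuclear receptors 6 rose and 2 fell (median 0.14). NR0B2 (SHP), the repressor that bile acids induce, went from 33.4, 34.4, 40.2 and 34.6 CPM to 108, 92.7, 105 and 99.0 CPM (1.51, SE 0.083, adjusted p = 7.89e-16). CYP7A1, the first enzyme of bile acid synthesis and a gene that SHP represses, went from 5.51 to 5.99 CPM down to 2.06 to 2.99 CPM (-1.11, SE 0.35, adjusted p = 0.022), a call that ended without any of 4 of the 8 libraries (adjusted p up to 0.0697). HNF4A and PPARA rose by 0.58 (SE 0.108) and 0.86 (SE 0.179), and FOXA1 and PROX1 fell by 1.05 (SE 0.26) and 0.58 on the log2 scale (SE 0.117). CYP1A1, the classical target of the aryl hydrocarbon receptor, rose by 1.84 (SE 0.175, adjusted p = 6.28e-10).

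Cytosolic ribosomal protein genes rose in 39 of 79 cases, each by less than 2-fold, and 1 fell (median 0.22). Without DMSO replicate 1, DMSO replicate 2 or nelfinavir replicate 3 the number called higher was 25, 20 and 23. The gene that fell was RPS26 (-0.52, SE 0.128, adjusted p = 0.00337), which has many near-identical pseudogenes that may take part of its reads. Summed over the list they took 80273 to 87238 CPM with nelfinavir and 68201 to 73646 CPM with DMSO. Among 26 hypoxia and glycolysis genes 4 rose (15.4%) and 3 fell (11.5%), against 10.4% and 8.84% of all tested genes (median -0.01). SLC2A3 (GLUT3), the high-affinity glucose transporter, whose 3′ end is 98% identical to that of SLC2A14, had 270, 312, 291 and 298 CPM with DMSO and 95.8, 90.2, 97.1 and 102 CPM with nelfinavir (-1.60, SE 0.117, adjusted p = 8.24e-13), while SLC2A1 (GLUT1) fell by 0.36 (SE 0.106). Of the 13 mitochondrially encoded genes 2 rose and 2 fell (15.4% each). MT-ND6, the message from the light strand, had 275, 227, 212 and 173 CPM with DMSO and 603, 399, 525 and 506 CPM with nelfinavir (1.20, SE 0.163, adjusted p = 9.43e-07). The sources used here do not say whether counting used the strand, and reads of MT-ND6 and of the transcript opposite to it may not be separated.

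**Figure D1:**
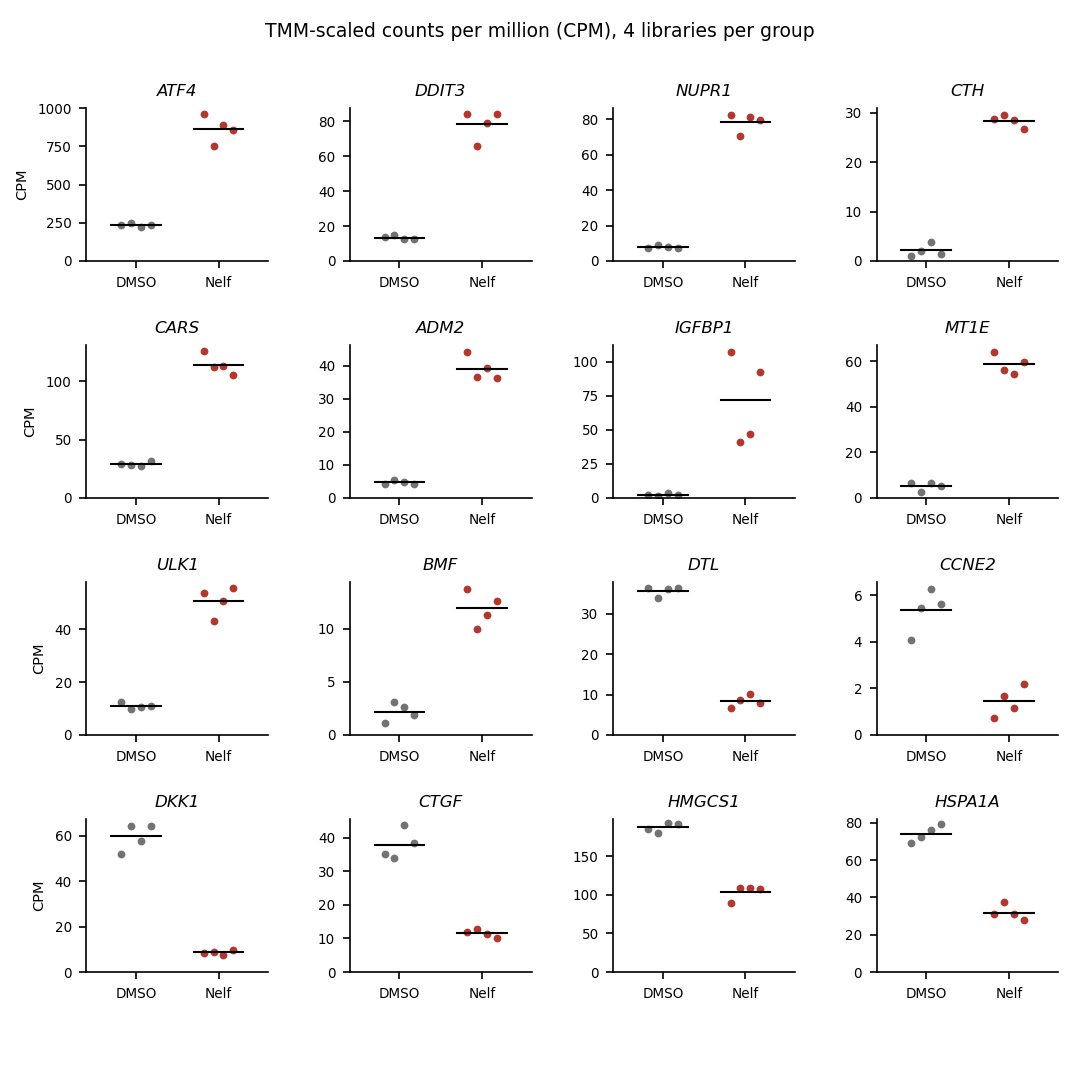
CPM after TMM scaling of 16 genes in each DMSO library (gray) and each nelfinavir library (red), on linear axes that start at 0, with group means as black bars. No gene shown has overlapping groups, for example ATF4 at 219 to 246 against 753 to 964 CPM and DKK1 at 51.9 to 64.6 against 7.66 to 9.61 CPM. The genes were chosen with earlier results known, and 29.6% of all tested genes had no overlap.

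The series also holds nelfinavir added to bortezomib, which gives the effect of the compound in other libraries. Against bortezomib alone, 1975 genes were called higher (15.6%) and 1694 lower (13.4%) on adding nelfinavir, and a model of only these 2 groups called 1284 higher and 962 lower. Of the 252 genes over 2-fold higher with nelfinavir alone, 99 (39.3%) were also called higher there and 18 called lower, and the median was 1.48 alone and 0.36 with bortezomib. Of the 180 genes over 2-fold lower, 29 (16.1%) were also called lower, 21 were called higher, and the median was -1.30 alone and -0.01 with bortezomib. That 16.1% is near the 13.4% of all tested genes called lower there. Both sets were chosen for a change over 2-fold alone, so their medians alone are enlarged by that choice. The 29 became 19 without bortezomib replicate 1, 18 without bortezomib replicate 3, 17 without replicate 3 of the combination and 15 in models of only the groups compared. The metallothioneins were among those that repeated, with MT1E at 3.46 alone and 3.72 with bortezomib (SE 0.197 and 0.209) and MT2A at 2.54 and 2.60 (SE 0.125 and 0.126). The difference between the 2 settings, the interaction of nelfinavir with bortezomib, was 0.26 for MT1E (SE 0.294, adjusted p = 0.579) and 0.06 for MT2A (SE 0.17, adjusted p = 0.845).

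**Figure D2:**
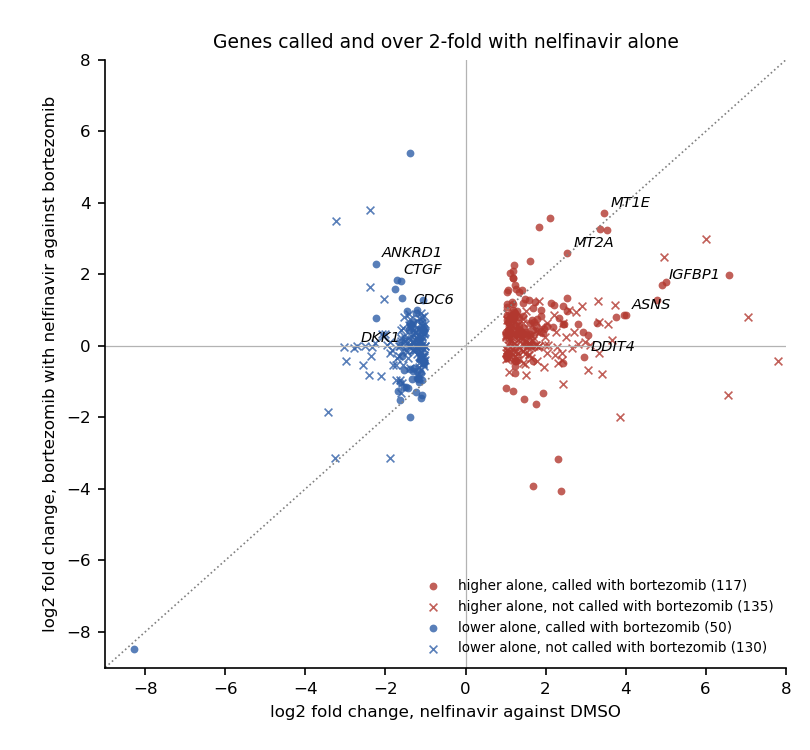
Each point is 1 of the 432 genes called and over 2-fold with nelfinavir alone, placed by its log2 fold change alone (horizontal) and on adding nelfinavir to bortezomib (vertical). Circles were called on adding nelfinavir to bortezomib and crosses were not, and the dotted line marks equal change. MT1E and MT2A lie on that line, most others lie nearer to 0 on the vertical axis, and ANKRD1, CTGF and CDC6 lie on opposite sides of 0. Genes were chosen by the horizontal value, which by itself favors values nearer to 0 on the vertical axis.

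The interaction was positive for 1236 genes (9.74%) and negative for 1269 (10.0%). It uses the libraries on which the genes with large changes alone were chosen. The interaction is given here for the genes with the smallest interaction p among those called with nelfinavir alone. Both choices rest on libraries that enter the interaction, so the sizes printed are enlarged. The negative ones included stress response genes that nelfinavir raised in untreated cells and that stood higher with bortezomib than with DMSO before nelfinavir was added. ASNS (asparagine synthetase) stood at 15.4 CPM with DMSO, 247 with nelfinavir, 146 with bortezomib and 266 with both, an interaction of -3.14 (SE 0.16, adjusted p = 3.07e-16). DDIT4, an inhibitor of mTORC1, gave -3.28 (SE 0.127, adjusted p = 2.42e-19), SLC7A11, the cystine transporter, -3.10, INHBE -2.91 and S100P, a calcium-binding protein, -2.56. DDIT4 and INHBE turned round: each rose with nelfinavir alone and fell by 0.32 and 0.48 on the log2 scale on adding it to bortezomib.

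Among the positive interactions, ANKRD1 fell from a mean of 17.9 to 3.77 CPM with nelfinavir alone and rose from 20.0 to 98.7 CPM on adding it to bortezomib (interaction 4.54, SE 0.253, adjusted p = 3e-15). CDC6 fell by 1.46 on the log2 scale alone and rose by 0.99 with bortezomib (interaction 2.45, SE 0.138, adjusted p = 3.69e-15). MIR4435-1HG, a long noncoding RNA with a near-identical copy (CYTOR), gave 2.15, DEFB1, an antimicrobial peptide gene, 2.72, and DNAJB1, a heat shock cochaperone, 1.75. DNAJB1 had 147 to 154 CPM with DMSO and 112 to 125 CPM with nelfinavir and rose by 1.42 on adding nelfinavir to bortezomib. BiP (HSPA5), not called with nelfinavir alone, rose by 2.65 on adding it to bortezomib (SE 0.103, adjusted p = 3.14e-19), from 2134 to 13417 CPM.

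Set directly against bortezomib, nelfinavir gave higher levels for 2989 genes (23.6%) and lower levels for 3191 (25.2%), so that 48.4% of the calls were higher. With library totals in place of TMM factors this share was 83.6%, and the median log2 fold change moved by 0.47, so directions near that size depend on the scaling. Among the genes also called with nelfinavir alone, those lower with the smallest p included 3 heat shock genes: HSPA1A at 31.9 CPM with nelfinavir and 3346 CPM with bortezomib (-6.71, SE 0.148, adjusted p = 2.31e-27), HSPA1B at -6.21 and DNAJB1 at -3.51. SAT1, which breaks down polyamines, and PPP1R15A gave -2.58 and -3.37. The call of SAT1 against DMSO ended without any of 5 of the 8 nelfinavir and DMSO libraries (adjusted p up to 0.0919). All 23 heat shock genes and all 31 proteasome genes tested were called lower with nelfinavir than with bortezomib under TMM scaling, with medians of -2.21 and -1.09. Among the 23, HSPA6 and HSPB8 had 0 counts with nelfinavir and passed the filter only through libraries given other treatments. Their lower calls were therefore set by that filter. By the same choice in the other direction ALDH1B1, RNF43, HNMT, RHOBTB3 and PALMD were higher by 1.68 to 3.05, and larger differences occurred outside this choice, and the metallothionein list had a median of 2.84. Of the 22 stress response regulators 5 were called higher with nelfinavir than with bortezomib, 7 lower and 10 neither way. ATF4 was higher by 0.52 (SE 0.115), near the size of the scaling shift, and NUPR1 by 2.30 (SE 0.163), while ATF3 gave -2.58 (SE 0.134). Among those not called were DDIT3 at 0.11 (SE 0.116, adjusted p = 0.443), TRIB3 at -0.08 (SE 0.101, adjusted p = 0.548) and CEBPB at 0.07 (SE 0.17, adjusted p = 0.75), differences smaller than that shift.

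**Figure D3:**
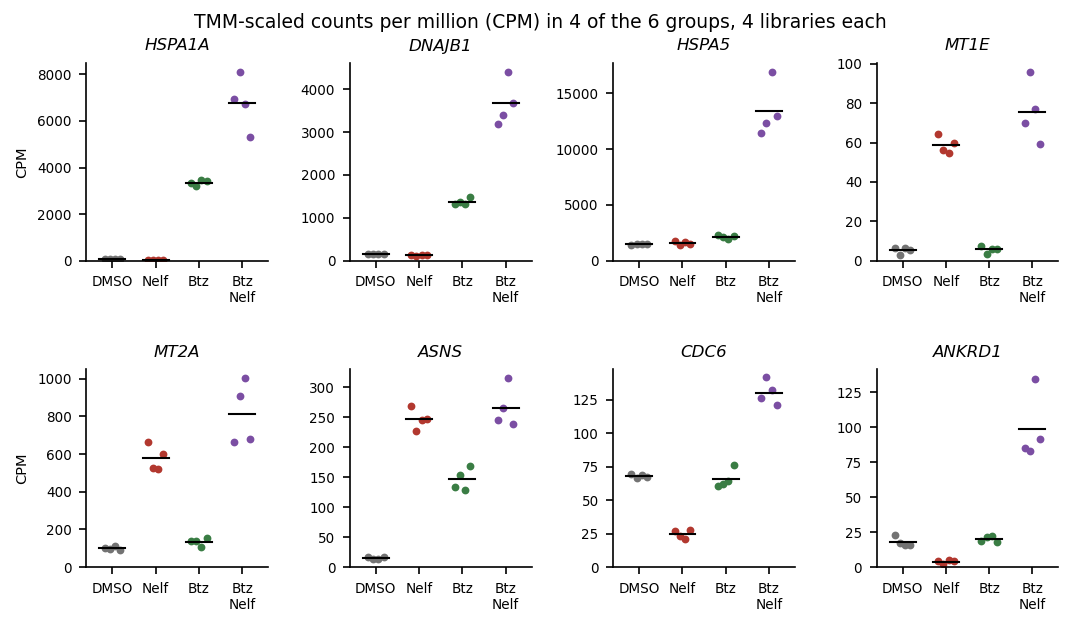
CPM after TMM scaling of 8 genes in the 4 libraries each of DMSO, nelfinavir, bortezomib and bortezomib with nelfinavir, on linear axes that start at 0, with group means as black bars. HSPA1A is high with bortezomib (mean 3346 CPM) and low with nelfinavir (31.9 CPM), MT1E and MT2A are high wherever nelfinavir was given, and ANKRD1 is lowest with nelfinavir alone and highest with both.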

How the data were processed

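RNA from HepG2 cells was made into 3′ QuantSeq libraries and read as single 80-base reads. Per the study's methods and the submitters' processing notes, the authors trimmed reads with cutadapt 2.8 and ran the nf-core workflow for RNA-Seq, version 1.4.2, whose aligner was STAR and whose reference was hg19 (GRCh37, Ensembl release 87). The deposited values are raw counts per gene and library. Which program counted the reads, and whether it used strand or molecular identifiers, is not given in the sources used here.

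Groups came from the labels. Genes were kept with edgeR 4.0.16 (R 4.3.3) by filterByExpr with a minimum count of 5 and a minimum total of 25, scaled by TMM, and fitted with glmQLFit and glmQLFTest in 1 model of all 24 libraries with 1 coefficient per group. The 4 contrasts were nelfinavir against DMSO, the combination against bortezomib, nelfinavir against bortezomib, and the interaction. Adjusted p-values are Benjamini-Hochberg values over all 12685 tested genes of a contrast. CPM and log2 values were computed here from the counts. Alternatives were other scalings, filters, DESeq2 1.42.0, a test above 2-fold, models without the other groups, a replicate block and leaving out each library. The fitting step was tested on simulated counts.

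The 36 gene lists and the genes named were chosen with earlier results of these data known. Named genes were list members, the 20 genes per direction with the smallest p among those over 2-fold and not overlapping, and the 5 per direction with the smallest p in the interaction and against bortezomib among those called against DMSO. Near copies were sought with BLAST 2.17.0 as matches of at least 80 bases at 97% identity or more to the final 500 bases of the transcripts of named genes. Libraries that share a replicate number were not taken as pairs: deviations from the group means of same-numbered DMSO and nelfinavir libraries correlated over 0.1 in 1 of 4 pairs. Since the labels name no separate cultures, p-values measure the spread between these libraries, which may be technical. Counting intervals cover counting error only. Some genes are not reported here.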

Additional observations from a re-analysis of the deposited data

Results flagged for a closer look

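For 10 genes the change on adding nelfinavir differed with and without bortezomib, by a test of the interaction. They were chosen by the smallest p in that test among genes called with nelfinavir alone, so the sizes are enlarged by that choice. The interaction on the log2 scale was 4.54 for ANKRD1, 2.72 for DEFB1, 2.45 for CDC6, 2.15 for MIR4435-1HG and 1.75 for DNAJB1. It was -3.28 for DDIT4, -3.14 for ASNS, -3.10 for SLC7A11, -2.91 for INHBE and -2.56 for S100P.

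Single libraries stood apart from the other 3 of their group, by Dixon's criterion for 4 samples, in 26 of the 398 groups checked. These groups included those of the 196 named genes, and chance alone gives about 1 in 20. All values are CPM. With DMSO the low ones were AARS at 78.9, CDKN1A at 46.2 and HYOU1 at 139 in replicate 3, DTL at 33.8 in replicate 2, MYC at 14.1 in replicate 1 and TSC22D3 at 0 in replicate 4. TSC22D3 had raw counts of 1, 1, 1 and 0 in the DMSO libraries, so its flag rests on 1 count. The high ones were CYP1A1 at 81.0, INHBE at 53.9, RNF43 at 93.1, SLC2A1 at 181 and SLC7A11 at 35.8, all in DMSO replicate 2, with ANKRD1 at 22.8 in replicate 1 and CCNB2 at 70.8 in replicate 4. With nelfinavir the low ones included FUT1 at 0.649, MAP1LC3B at 48.1, MT1X at 9.86, PMAIP1 at 2.98 and TARS at 234 in replicate 3. HMGCS1 at 89.8 in replicate 1, KRT18 at 379 in replicate 2 and, in replicate 4, SDF2L1 at 42.1 and SREBF2 at 36.2 were also low. The high ones were MLXIPL at 329 in replicate 3, MSMO1 at 66.2 and PCNA at 99.9 in replicate 2, and PSPH at 155 in replicate 4. Of the called genes among these, SDF2L1 lost its call without the library that stood apart, at adjusted p values up to 0.0929 over the libraries left out.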

How the results depend on the processing

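Changes with nelfinavir alone kept their direction in nearly every setting. Of 2934 alternative values for 196 named genes, 2825 stayed on the same side of the threshold, 85 (19 genes) lost the call, 14 (5 genes) gained it and 10 reversed. The reversed values were those of MYC, XBP1 and ABCB1, which were not called: MYC gave -0.037 with a replicate block and ABCB1 -0.0062 with library totals, and with 1 library left out MYC ran from -0.1136 to 0.2352, XBP1 from -0.0054 to 0.1176 and ABCB1 from -0.07 to 0.0903. In a model of only the groups compared, nelfinavir against DMSO gave 1925 genes higher and 1948 lower, the combination against bortezomib 1284 higher and 962 lower, and the genes lower in both settings numbered 15. A test above 2-fold gave 94 higher and 27 lower. With library totals in place of TMM factors, nelfinavir against bortezomib gave 6113 higher and 1197 lower, and nelfinavir against DMSO 1162 and 1215. DESeq2 called 1375 higher and 1288 lower, and median-of-ratios factors 1264 and 1181. Leaving out 1 library gave 1013 to 1236 higher and 830 to 1022 lower for nelfinavir against DMSO, and 17 to 38 genes lower in both settings. Over the same fits the difference in total counts ran from -89860 to 241000 and that in genes with a count from -54.5 to 5.5. With the replicate number as a block, 1363 genes were higher and 1203 lower, and pairing changed no count of calls by over 1.5 times. Same-numbered libraries did not all correlate best with each other (-0.02 to 0.11), so the numbers were not read as pairs. Depth limits the genes under about 1 CPM, where a handful of counts sets the value.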

Other observations

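Lipoprotein genes, which the liver secretes to carry fat, moved little. Of 13 tested 3 rose and none fell, APOC1 by 0.44 (SE 0.12, adjusted p = 0.00791), APOE by 0.37 (SE 0.116, adjusted p = 0.0219) and APOA2 by 0.26 (SE 0.077, adjusted p = 0.0127). The call of APOE ended without DMSO replicate 2 or 3 or nelfinavir replicate 1 (adjusted p up to 0.172) and with library totals, and that of APOA2 without DMSO replicate 3 or nelfinavir replicate 3 (up to 0.0505). Of 12 tested genes of drug and bile acid metabolism 2 rose (16.7%) and 1 fell (8.33%), against 10.4% and 8.84% of all tested genes. Beside CYP1A1, CYP27A1, which starts the alternative route to bile acids, rose by 0.51 (SE 0.0794, adjusted p = 8.79e-06). The drug efflux pump ABCB1 gave 0.02 (SE 0.107, adjusted p = 0.947). The epithelial keratin KRT8 fell by 0.62 on the log2 scale (SE 0.155, adjusted p = 0.00326), while its partner KRT18 was not called (-0.17, SE 0.103, adjusted p = 0.284). The 3′ ends of APOC1, ABCB1, KRT8 and KRT18 matched near copies (APOC1P1, ABCB4 and keratin pseudogenes), so part of their reads may have been assigned elsewhere.

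Several genes were near absent from DMSO libraries and present in every nelfinavir library. They were singled out after their values were seen. TSC22D3 (GILZ), a glucocorticoid-induced regulator, had 3 counts over the 4 DMSO libraries and 345 over the nelfinavir libraries, a ratio of 115 (95% counting interval 39.1 to 562). Its CPM with nelfinavir were 12.9, 8.13, 10.6 and 11.9, and on adding nelfinavir to bortezomib it rose by 2.00 (SE 0.314). P2RX1, an ATP-gated ion channel gene, had 0 counts with DMSO and 139 with nelfinavir, at least 46.4-fold higher when 3 counts over the group are taken as the floor. On the same basis KLHDC7B (83 counts) was at least 27.7-fold, ULBP1 (59 counts), which encodes a ligand of the immune receptor NKG2D, at least 19.7-fold and the fucosyltransferase gene FUT1 (40 counts) at least 13.4-fold higher. P2RX1, KLHDC7B and ULBP1 also had counts in each of the 4 bortezomib libraries, at means of 5.15, 5.64 and 1.62 CPM. So did TSC22D3, with raw counts of 9, 31, 14 and 29.

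NPAS3, a neuronal transcription factor gene, varied within its group. Its DMSO libraries held 126, 1, 1 and 78 counts and the nelfinavir libraries 0. The bortezomib libraries were at 15.4, 0, 13.1 and 0 CPM. The call with nelfinavir against DMSO (adjusted p = 0.016) ended without DMSO replicate 1 (adjusted p = 0.0601).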
